A study of Mus musculus with 19 samples.

Results

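The data described here are the livers of 7 wild-type (WT) mice, out of 19 mice in the series, divided by the number that ends each sample title. Mice 1, 2 and 3 have the low numbers, and mice 9, 11, 12 and 13 the high numbers. All 7 carry the label WT + AAV-Cre, a virus that delivers Cre recombinase, and all spent 3 months on Western diet with the liver toxin carbon tetrachloride (CCl4), a regimen used as a model of steatohepatitis. The sets therefore share genotype and treatment. What the number stands for is not given, nor are age, sex, litter, time of collection, feeding state, batch or the promoter that drives Cre. For comparison, Het + AAV-Cre livers on the same regimen were also divided into low numbers, mice 4, 6 and 7, and high numbers, mice 14, 19 and 20. The 6 Homo + AAV-Cre livers are mice 8 and 10 and mice 15 to 18. The numbers that count as low and high are thus not the same in each genotype: mouse 9 is high in WT and mouse 10 low in Homo. Each mouse gave 1 library of total RNA, and a library is 1 replicate.

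The liver follows daily cycles of light, feeding and hormones. A core clock of activators (Arntl, Clock, Npas2) and repressors (the Per and Cry genes, Nr1d1) runs in hepatocytes and drives outputs such as Dbp and, in mice, the bile acid enzyme Cyp7a1. Hepatocytes also make large amounts of secreted protein, and 2 chaperone programmes serve that load: the unfolded protein response of the endoplasmic reticulum (ER) and the heat shock response of the cytosol.

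The low-number mice differed from the high-number mice in 468 of 16153 genes tested (2.9%) at an adjusted p under 0.05, referred to below as called. Of these, 220 were higher (1.36%) and 248 lower (1.54%) in the low-number mice. Of the 54 gene lists examined, 6 had at least 4 calls: the unfolded protein response, the circadian clock, the heat shock response, the growth hormone axis, genes of fasting and glucocorticoids, and bile acid genes. Most calls lay elsewhere: 394 of the 468 genes were in no list, and 25 lists had no call. The median fold of called genes was 1.63 among the higher and 1.61 among the lower genes, and 56 higher and 64 lower genes passed 2-fold. The count of 468 changed with the mouse left out: it was 88 without mouse 1, 134 without mouse 2, 281 without mouse 3, 278 without mouse 12 and 106 without mouse 13. For every called gene all 3 low-number mice lay on one side of all 4 high-number mice. Over all genes tested that held for 8.9% with the low-number mice on top and 8.85% with them below.

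Library totals were 34.6 to 39.9 M counts (mega) in the low-number mice and 33.1 to 35.8 M in the high-number mice. Genes of the mitochondrial genome took 3.87 to 3.99% of counts in the low-number mice and 4.1 to 4.75% in the high-number mice (exact permutation p = 0.0571, two-sided), and ribosomal protein genes took 0.563 to 0.595% and 0.49 to 0.55% (exact permutation p = 0.0571). With 35 ways to divide the mice, the smallest p such a test can give is 0.0286. Markers of liver identity were present in both sets: the summed hepatocyte markers ranged from 13800 to 16500 CPM (counts scaled to library size) in the low-number mice and from 12400 to 15600 CPM in the high-number mice. All 5 markers were higher in the low-number mice, at a median log2 fold change of 0.225, as were 49.7% of all genes. None was called, and 3 did not overlap between the sets, against 17.7% of all genes in either direction. Y-linked genes were expressed in all 7. Pkd1, the gene studied by the series, was at 328, 391 and 412 CPM in the low-number mice and at 419, 412, 452 and 425 CPM in the high-number mice, with no call (log2 fold change -0.17 ± 0.09, adjusted p = 0.337).

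Clock genes were called in both directions: 11 of the 20 list members, 4 higher and 7 lower, against 1.36% and 1.54% of all genes. The 4 higher genes were Arntl, Clock and Npas2, the activators, and Nr1d1, a repressor of Arntl. The 7 lower genes included Per2, Per3 and Cry2, repressors of the activators, Dbp and Tef, output factors of the same bZIP family, and Bhlhe41, a further repressor. In what follows the CPM of single mice are in order of their numbers, and ± after a log2 fold change, low-number over high-number mice, is its standard error.

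Arntl, which encodes the activator BMAL1, was at 65.4, 28.6 and 20.4 CPM in the low-number mice, against 9.03, 10.2, 13.8 and 6.67 CPM in the high-number mice. Mouse 1 was well above the other low-number mice, and the sets did not overlap (log2 fold change 1.95 ± 0.39, adjusted p = 0.0347). Npas2, a partner of BMAL1 that can stand in for CLOCK, showed the same order at low counts, with 2.77, 2.14 and 0.645 CPM against 0.389, 0.167, 0.429 and 0.299 CPM in the high-number mice (2.53 ± 0.53, adjusted p = 0.0428). Clock itself moved less, at 272 ± 19.9 CPM in the low-number mice (SD, n = 3) and 197 ± 20.5 CPM in the high-number mice (SD, n = 4). Nr1d1, whose product REV-ERB alpha represses Arntl, was also higher, at 83.2, 72.4 and 95.1 CPM in the low-number mice against 55, 26, 37.2 and 32 CPM in the high-number mice (1.16 ± 0.23, adjusted p = 0.0323). Here mouse 1 did not stand out.

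The output factor Dbp was at 68.5, 67.9 and 112 CPM in the low-number mice, against 203, 186, 184 and 208 CPM in the high-number mice. The high-number mice were close together, and mouse 3 lay nearest to them (log2 fold change -1.24 ± 0.17, adjusted p = 0.0123). Per3, a period gene, had 89.8, 92.9 and 147 CPM in the low-number mice and 276, 333, 228 and 295 CPM in the high-number mice (-1.36 ± 0.19, adjusted p = 0.0133). Mouse 3 was again the highest of the low-number mice for Per2, Cry2, Tef and Bhlhe41, as it was for Dbp and Per3. Wee1, a cell cycle kinase whose gene is a known clock target in mouse liver, fell by 2.01 ± 0.31 on the log2 scale, with 1.61, 1.92 and 4.19 CPM in the low-number mice against 9.89, 11.4, 9.37 and 10.7 CPM in the high-number mice. Not all period genes moved. Per1 was at 129, 86.5 and 167 CPM in the low-number mice and 122, 161, 117 and 141 CPM in the high-number mice, fully overlapping (-0.08 ± 0.20, adjusted p = 0.894).

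**Figure D1:**
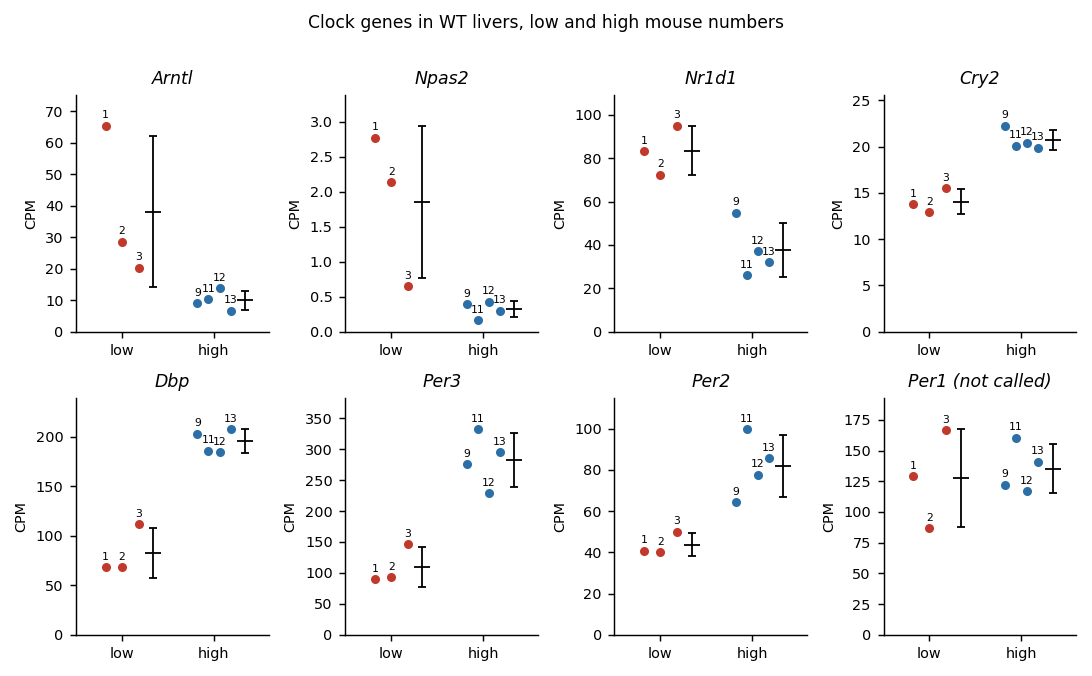
Clock genes in single WT livers: CPM (vertical axes, from 0) in the low-number mice (red, left) and the high-number mice (blue, right), each point labelled with its mouse number, with the mean and SD in black. Arntl, Npas2 and Nr1d1 are higher in the low-number mice, Cry2, Dbp, Per3 and Per2 are lower, and Per1 overlaps between the sets.

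Call counts in the clock list changed with the mouse left out. The list had no call without mouse 1 and 1 call, a lower one, without mouse 2, while without mouse 3 it had 2 higher and 7 lower calls and without mouse 11 it had 2 higher and 5 lower calls. Without mouse 12 or mouse 13 it had no higher call and 4 or 3 lower calls, and without mouse 9 it had 1 higher and 4 lower calls. Directions of the called clock genes named above did not turn in any of these fits. Bhlhe41 lost its call in all 7, Arntl, Npas2, Clock and Tef in 6, and Nr1d1 and Cry2 in 5. Per2 lost it in 3, Per3 in 2 and Dbp in 1. Adjusted p-values reached 0.176 for Npas2, 0.165 for Tef, 0.16 for Bhlhe41, 0.134 for Clock, 0.11 for Nr1d1, 0.104 for Cry2 and 0.0949 for Arntl. They reached 0.092 for Per2, 0.0621 for Per3 and 0.0615 for Dbp.

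Sequence around the start sites of the called clock genes was searched for 2 textbook clock motifs on both strands, the E-box CACGTG, bound by CLOCK and BMAL1, and the D-box TTATGTAA, bound by DBP and TEF. Windows ran from 250 bases before to 50 after each RefSeq start, and were on hand for all 4 higher and 5 of the 7 lower genes. An E-box was found for Bhlhe41 and Tef, and is in 9% of the 15401 promoters of all tested genes. A D-box was found only in the promoter of Per3, which holds 2, and is in 0.675% of all promoters. Such matches are letters and not evidence of binding. The Per3 sequence is shown because it alone among these promoters holds a D-box. It covers the 250 bases before the start (RefSeq, GRCm38.p6), 5′ to 3′ on the strand of the gene, with the D-boxes in capitals.

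Per3, chr4:151044666-151044915, minus strand: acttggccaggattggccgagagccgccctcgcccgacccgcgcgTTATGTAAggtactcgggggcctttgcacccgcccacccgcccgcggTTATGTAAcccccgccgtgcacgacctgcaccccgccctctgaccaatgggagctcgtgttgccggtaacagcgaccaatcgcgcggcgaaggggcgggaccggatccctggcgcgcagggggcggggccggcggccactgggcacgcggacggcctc

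The unfolded protein response was the list with the most calls in a single direction. Of its 22 members, 12 were called higher in the low-number mice, 0 were called lower and 20 had a fold change above 0, with a median log2 fold change of 0.64, against 1.36% of all genes called higher, 49.7% above 0 and a median of -0.00209 over all genes. The called members were the chaperones Hspa5 (BiP), Hsp90b1 (GRP94), Hyou1, Dnajb9 and Calr, the disulfide isomerase Pdia4, the ER-resident Creld2, the secreted survival factor Manf, the degradation factors Syvn1 (an E3 ligase), Sel1l (its partner) and Herpud1, and the stress transcription factor Ddit3 (CHOP).

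Dnajb9, an ER co-chaperone of BiP, was almost equal in the low-number mice, at 51.3, 51.3 and 51.5 CPM, against 21.2, 23.3, 21.2 and 16.4 CPM in the high-number mice (log2 fold change 1.33 ± 0.12, adjusted p = 0.00234). Its level in every low-number mouse was more than 2-fold that of any high-number mouse. Hspa5, the main ER chaperone, was at 480, 384 and 344 CPM in the low-number mice and at 242, 210, 170 and 198 CPM in the high-number mice (0.98 ± 0.14, adjusted p = 0.0134). Syvn1 had 140, 116 and 105 CPM in the low-number mice, against 68.4, 56.9, 56.3 and 50.3 CPM in the high-number mice (1.06 ± 0.13, adjusted p = 0.00713). For both genes mouse 1 was the highest of the 7. Ddit3 was lower in level, at 12.7, 11.2 and 9.24 CPM in the low-number mice and 3.86, 4.42, 6.95 and 3.68 CPM in the high-number mice (1.23 ± 0.23, adjusted p = 0.0281). The remaining 8 called members ranged from 0.42 ± 0.08 for Sel1l to 1.17 ± 0.18 for Creld2. Xbp1, the gene of the transcription factor that drives much of this programme after its mRNA is spliced, went the other way without a call, at 117, 123 and 127 CPM in the low-number mice and 158, 159, 143 and 143 CPM in the high-number mice (-0.30 ± 0.07, adjusted p = 0.0714). Counts per gene do not separate spliced from unspliced Xbp1.

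Among called genes outside the list, Creb3l2, an ER-anchored transcription factor, rose by 1.24 ± 0.09 (adjusted p = 0.0022), with 52.5, 56.2 and 49.7 CPM in the low-number mice and 24.1, 22.7, 19.5 and 23.4 CPM in the high-number mice. Alg2, a mannosyltransferase of N-glycan assembly at the ER, rose by 1.24 ± 0.11 (adjusted p = 0.00234). Bhlha15 (MIST1), a transcription factor of secretory cells, had the largest rise among the called genes that have an official symbol and average 1 CPM or more in 1 of the sets, but at few counts: 2.01, 1.5 and 1.58 CPM in the low-number mice against 0.167, 0.0556, 0 and 0.269 CPM in the high-number mice (3.75 ± 0.70, adjusted p = 0.0271). Of 24 genes of ER translocation and secretory transport, 2 were called higher, the signal peptidase subunit Spcs2 and the translocon-associated Ssr4, while 21 had a fold change above 0 at a median of 0.21. Of 21 genes of the ATF4 and amino acid response, Psph and Atf5 were called higher, by 0.85 ± 0.13 and 0.93 ± 0.15, and 17 were above 0. The shares over all genes were 1.36% called higher and 49.7% above 0. Creb3l2 and Alg2 were called without any one mouse, Psph and Atf5 lost their calls without mouse 1, 2 or 13 (adjusted p up to 0.0747), and Bhlha15, Spcs2 and Ssr4 lost theirs in 5, 4 and 6 of the 7 fits.

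Calls in the unfolded protein response list numbered 4 without mouse 1, 5 without mouse 2, 9 without mouse 3, 10 without mouse 9, 9 without mouse 11, 8 without mouse 12 and 3 without mouse 13, all of them higher, and 20 of 22 members stayed above 0 in each. Dnajb9 and Syvn1 were called in every one of these fits. Hspa5 and Calr lost the call only without mouse 13 (adjusted p = 0.0524 and 0.0654), whereas Sel1l lost it in each and Hyou1 in 6 of 7.

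The ER stress response element, CCAAT and CCACG with 9 bases of any kind between them, is the textbook binding site of ATF6 with NF-Y. Searched on both strands in the same windows, it was in 5 of the 10 promoters on hand for the called members of the list, and in 21 of the 15401 promoters of all tested genes (0.136%). The shorter XBP1 site TGACGTGG was in none of the 10 and in 0.967% of all. The longer element was also in promoters of Derl3, Pdia6, Dnajc3 and Canx, members of the list that were not called. It thus does not mark the called members alone. The list is of known genes of this response, so its share of promoters with the element is no independent support. Over the 21 tested genes with the element, whatever their list, 19 had a fold change above 0 and 7 were called higher, with 0 called lower and a median log2 fold change of 0.47. Over the 11906 tested genes with a promoter on hand, 5974 were above 0, 160 were called higher and 186 lower, at a median of 0.00107. Of the 12 genes with the element outside the unfolded protein response list, 10 were above 0 and 2 were called higher, Acnat2, an acyltransferase gene, by 1.24 ± 0.17 and Hnrnpa3, an RNA-binding protein gene, by 0.49 ± 0.08. A match is a description of letters and not evidence of binding.

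The 5 promoters shown are those of called members of the list that hold the element. Each is the 250 bases before the start (RefSeq, GRCm38.p6), 5′ to 3′ on the strand of the gene, with the element in capitals, read in reverse orientation where the capitals begin with CGTGG. Hsp90b1 holds it in both orientations.

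Hspa5, chr2:34771840-34772089, plus strand: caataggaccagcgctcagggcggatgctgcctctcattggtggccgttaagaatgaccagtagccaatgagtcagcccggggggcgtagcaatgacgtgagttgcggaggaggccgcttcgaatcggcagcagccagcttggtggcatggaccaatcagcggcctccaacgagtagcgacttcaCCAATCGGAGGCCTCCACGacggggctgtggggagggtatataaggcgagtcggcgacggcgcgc

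Syvn1, chr19:6046326-6046575, plus strand: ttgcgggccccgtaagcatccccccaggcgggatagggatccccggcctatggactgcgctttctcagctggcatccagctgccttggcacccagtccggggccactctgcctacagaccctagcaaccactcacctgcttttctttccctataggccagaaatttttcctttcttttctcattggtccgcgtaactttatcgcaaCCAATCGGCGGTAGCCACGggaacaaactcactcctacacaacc

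Creld2, chr15:88819396-88819645, plus strand: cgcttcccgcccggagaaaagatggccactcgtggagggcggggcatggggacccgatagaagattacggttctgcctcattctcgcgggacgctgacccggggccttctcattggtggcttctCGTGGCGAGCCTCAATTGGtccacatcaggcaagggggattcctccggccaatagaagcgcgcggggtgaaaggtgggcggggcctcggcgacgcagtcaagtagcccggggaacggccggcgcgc

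Calr, chr8:84846932-84847181, minus strand: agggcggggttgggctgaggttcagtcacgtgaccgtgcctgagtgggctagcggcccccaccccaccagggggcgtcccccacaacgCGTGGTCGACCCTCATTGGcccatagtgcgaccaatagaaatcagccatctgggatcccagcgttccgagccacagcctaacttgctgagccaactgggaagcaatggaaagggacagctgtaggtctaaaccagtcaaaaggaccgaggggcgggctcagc

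Hsp90b1, chr10:86705445-86705694, minus strand: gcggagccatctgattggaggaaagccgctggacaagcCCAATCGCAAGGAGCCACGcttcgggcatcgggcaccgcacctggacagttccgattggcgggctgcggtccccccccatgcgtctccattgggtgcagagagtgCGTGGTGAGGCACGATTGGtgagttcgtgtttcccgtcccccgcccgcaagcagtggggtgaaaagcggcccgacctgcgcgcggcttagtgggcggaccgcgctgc

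In the heat shock response list 6 of 19 members were called, all higher, against 1.36% of all genes, and 18 of 19 had a fold change above 0 at a median of 0.41. Hsph1, a nucleotide exchange factor for HSP70, was at 109, 94.9 and 97.4 CPM in the low-number mice, against 49.2, 56.6, 52 and 52.4 CPM in the high-number mice (log2 fold change 0.94 ± 0.08, adjusted p = 0.00234). The spread within each set was small beside the distance between them. Bag3, a co-chaperone of selective autophagy, had 31.9, 26.5 and 23.7 CPM in the low-number mice and 13.9, 13.2, 14.8 and 13.6 CPM in the high-number mice (0.98 ± 0.12, adjusted p = 0.00701). Dnajb1, Hsp90aa1 and Hspb1, a co-chaperone, a cytosolic HSP90 and a small heat shock protein, rose by 0.97 ± 0.15, 0.70 ± 0.11 and 0.78 ± 0.16. Hspa1b, an inducible HSP70 gene, rose by 2.14 ± 0.28 (adjusted p = 0.00923), with 11, 11.7 and 9.88 CPM against 1.81, 2.03, 4.07 and 1.94 CPM in the high-number mice. Its near-identical neighbour Hspa1a can share its reads, so the split between them is uncertain. The list had 3 calls without mouse 1 and 3 without mouse 13, and 4 to 6 without any other mouse. Hsph1, Bag3 and Hspa1b were called in all 7 of these fits. Hspb1 lost its call in all 7 (adjusted p up to 0.1465) and in the fit with no filter. Hsp90aa1 lost it in 3 and Dnajb1 in 2.

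**Figure D2:**
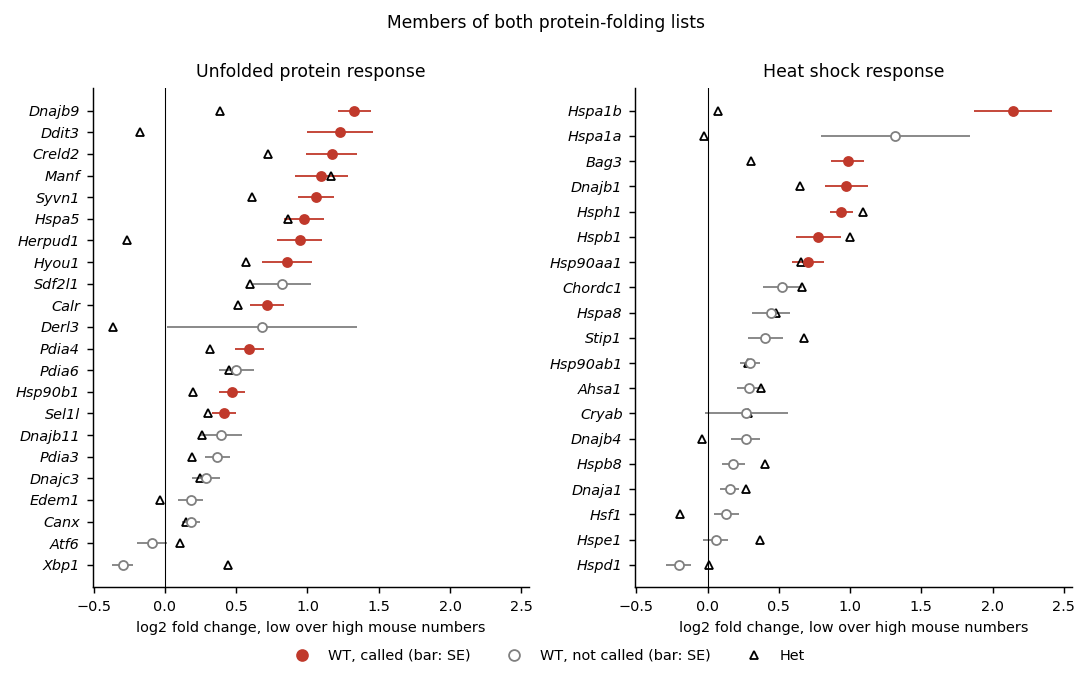
All tested members of the unfolded protein response list (left) and the heat shock response list (right): log2 fold change of low-number over high-number mice (horizontal axes), with WT as circles (red when called, open grey when not, bars SE) and Het as triangles. In WT 20 of 22 and 18 of 19 members lie right of 0, and Hsph1, Hspb1 and Manf lie about as far right in Het, whereas Ddit3 and Herpud1 lie left of 0 in Het.

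Hormone- and fasting-responsive genes moved in both directions. Of 21 genes of fasting, glucocorticoids and gluconeogenesis, 4 were called higher and 1 lower, against 1.36% and 1.54% of all genes. Zbtb16, a transcription factor induced by glucocorticoids, was at 98.3, 116 and 143 CPM in the low-number mice, against 11.8, 38.4, 17.9 and 13.1 CPM in the high-number mice (log2 fold change 2.55 ± 0.38, adjusted p = 0.0156). Igfbp1, a fasting-induced binding protein of insulin-like growth factors, had 57.7, 41.1 and 32.2 CPM in the low-number mice and 7.28, 9.73, 13.1 and 8.07 CPM in the high-number mice (2.20 ± 0.24, adjusted p = 0.00544). For both genes every low-number mouse was at more than 2-fold any high-number mouse. Tat, which breaks down tyrosine, reached 1055, 578 and 782 CPM in the low-number mice against 226, 324, 396 and 326 CPM in the high-number mice (1.34 ± 0.22, adjusted p = 0.0192). Ppargc1a, a coactivator of gluconeogenesis, rose by 0.78 ± 0.15, and Klf15, a glucocorticoid-induced regulator of amino acid breakdown outside the list, by 0.78 ± 0.12. The lower call of the list was Cpt1a, described with the lipid genes. The gluconeogenic enzyme gene G6pc was at 122 ± 15.2 CPM in the low-number mice (SD, n = 3) and 94.9 ± 22.9 CPM in the high-number mice (SD, n = 4), without a call (adjusted p = 0.357). Igfbp1 and Zbtb16 were called without any one mouse, Tat and Klf15 lost the call without mouse 1 or mouse 13 (adjusted p up to 0.0706), and Ppargc1a lost it in 5 of 7 such fits.

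The growth hormone and IGF axis had 4 lower calls and 1 higher, Igfbp1, among 16 tested genes. Among all genes tested, 1.54% were called lower and 1.36% higher. Socs2, a feedback inhibitor induced by growth hormone, was at 12.3, 15.4 and 7.18 CPM in the low-number mice, against 49.4, 66.8, 41.4 and 42.8 CPM in the high-number mice (log2 fold change -2.10 ± 0.27, adjusted p = 0.00873). It was called without any one mouse. Igf1, the main growth factor made under growth hormone, fell by 0.43 ± 0.09 (adjusted p = 0.0494), and Igfals and Igfbp4, which bind it in blood, fell by 0.56 ± 0.12 and 0.34 ± 0.06. Those 3 calls were mostly lost when 1 mouse was left out: that of Igf1 in all 7 such fits and those of the other 2 genes in 6 of 7 (adjusted p up to 0.144). Of 22 p53 targets, 2 were called, both higher and both in every fit without 1 mouse. Cdkn1a, the cyclin kinase inhibitor p21, was at 12.4, 6.95 and 6.45 CPM in the low-number mice and 2.53, 1.86, 1.62 and 1.52 CPM in the high-number mice (2.19 ± 0.28, adjusted p = 0.00873), and Trp53inp1, a stress-induced p53 partner, rose by 0.94 ± 0.11 (adjusted p = 0.00713).

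Bile acid genes held some of the largest differences. Cyp7a1, the rate-limiting enzyme of bile acid synthesis, was at 54.7, 91.4 and 62.2 CPM in the low-number mice, against 380, 231, 437 and 453 CPM in the high-number mice (log2 fold change -2.43 ± 0.27, adjusted p = 0.00544). The highest low-number mouse was well under the lowest high-number mouse, mouse 11. Nr0b2 (SHP), a repressor of Cyp7a1, was higher, at 36.7, 29.1 and 29.8 CPM in the low-number mice and 4.08, 9.81, 7.1 and 4.9 CPM in the high-number mice (2.30 ± 0.27, adjusted p = 0.0061). The bile acid receptor gene Nr1h4 (FXR), which induces Nr0b2, fell by 0.79 ± 0.09 (adjusted p = 0.00587), at 204 ± 23.2 CPM in the low-number mice (SD, n = 3) and 355 ± 19.1 CPM in the high-number mice (SD, n = 4). All 3 were called without any one mouse. Hsd3b7, a later enzyme of the pathway, rose by 0.70 ± 0.12 (adjusted p = 0.0202) and lost its call without mouse 1, 2, 12 or 13 (adjusted p up to 0.0813). In all, 4 of 20 tested genes of the bile acid list were called, 2 in each direction, against 2.9% of all genes tested. Prox1, a hepatocyte factor outside that list, fell by 1.11 ± 0.15 (adjusted p = 0.0107, and 0.0564 without mouse 1).

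**Figure D3:**
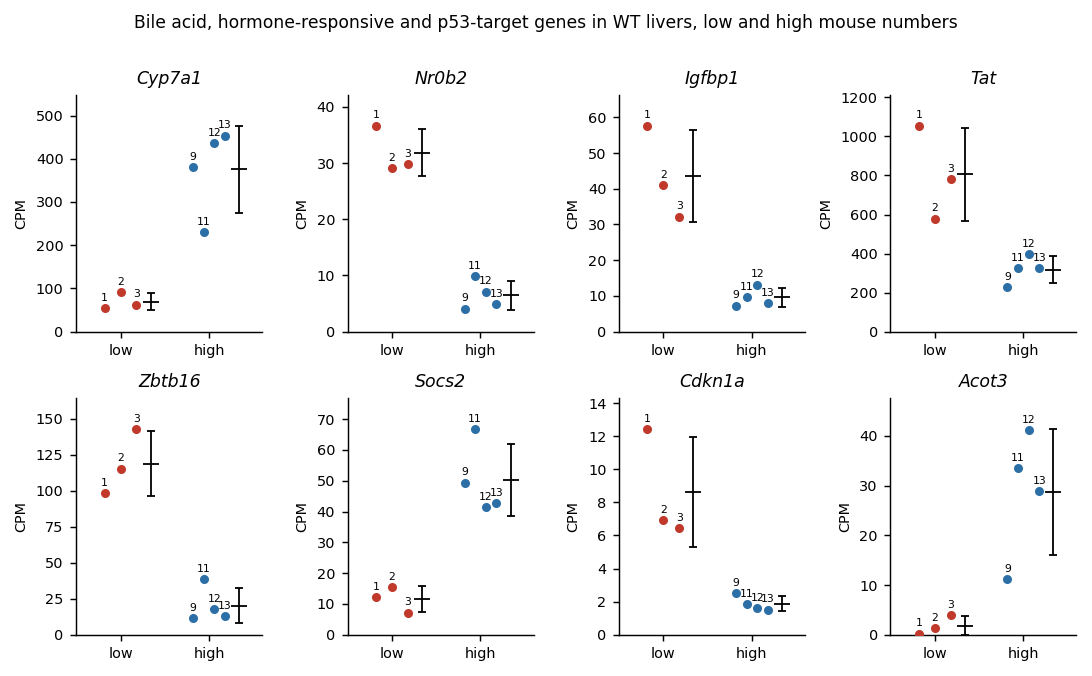
CPM of 8 genes in single WT livers (vertical axes, from 0) in the low-number mice (red, left) and the high-number mice (blue, right), labelled with mouse numbers, with mean and SD in black. Cyp7a1, Socs2 and Acot3 are lower and Nr0b2, Igfbp1, Tat, Zbtb16 and Cdkn1a are higher in the low-number mice, with no overlap in any panel.

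Lipid genes were called in both directions, as were 1.36% (higher) and 1.54% (lower) of all genes tested. Of 27 genes of fatty acid oxidation and PPARA targets, 3 were called, all lower, among them Acot3 by 3.97 ± 0.73 and, by a smaller amount, Cpt1a, the entry step of mitochondrial oxidation (-0.41 ± 0.08). Acot3, a peroxisomal thioesterase, was at 0.252, 1.36 and 3.96 CPM in the low-number mice and 11.2, 33.6, 41.1 and 29 CPM in the high-number mice. Its neighbour Acot4, outside the list, fell by 1.56 ± 0.24, and the copies in this gene cluster are similar enough that reads could be shared. Lipe and Pnpla2, the hormone-sensitive and adipose triglyceride lipases, fell by 0.94 ± 0.15 and 0.56 ± 0.09. On the synthetic side, Mlxipl (ChREBP), a glucose-sensing factor, rose by 0.40 ± 0.06 and Acaca, which makes malonyl-CoA, by 0.47 ± 0.09, 2 of 21 genes of fatty acid and triglyceride synthesis. Fasn, fatty acid synthase, was at 848, 440 and 462 CPM in the low-number mice and 251, 249, 304 and 397 CPM in the high-number mice, with no overlap but no call (0.96 ± 0.25, adjusted p = 0.0845). In cholesterol synthesis 1 of 21 genes was called, Hmgcs1, up by 0.69 ± 0.11, a call lost without mouse 1, 3 or 13 (adjusted p up to 0.0799) and in the fit of all 19 libraries (adjusted p = 0.256). The fatty acid oxidation list had no call without mouse 1, 2, 12 or 13, 1 without mouse 3 or 9, and 7 lower and 1 higher without mouse 11. In the synthesis list Acaca lost its call in all 7 fits without 1 mouse (adjusted p up to 0.117) and in the fit of all 19 libraries (adjusted p = 0.215), and Mlxipl lost it only without mouse 1 (adjusted p = 0.0615). Cpt1a lost its call in 6 of the 7 fits and Acot3 in 4. The lipid droplet list, which holds Lipe and Pnpla2, had none lower without mouse 1, 2 or 13.

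Most genes with the smallest p-values were in none of these groups. Cpeb2, a regulator of mRNA translation, had the smallest adjusted p of all (0.000879), with 481, 406 and 446 CPM in the low-number mice and 162, 174, 185 and 177 CPM in the high-number mice (log2 fold change 1.35 ± 0.08). Nmrk1, a nicotinamide riboside kinase of NAD synthesis, followed in the other direction, at 10.8, 10.9 and 13.8 CPM in the low-number mice against 37, 38.8, 40.6 and 36 CPM in the high-number mice (-1.68 ± 0.11, adjusted p = 0.00124). Both were tight within sets. Adck3, a kinase-like protein of coenzyme Q synthesis, rose by 1.14 ± 0.09, Tacc2 by 0.83 ± 0.07, and Ip6k2, an inositol hexakisphosphate kinase, by 1.19 ± 0.10. Among the lower genes were the transglutaminase Tgm1 (-1.91 ± 0.16), the Wnt receptor Fzd4 (-1.46 ± 0.13), the vitamin transporter Slc5a6 (-1.27 ± 0.12), the cholesteryl ester hydrolase Nceh1 (-1.01 ± 0.09), Fam102a (-1.20 ± 0.11), Ankrd12 (-0.85 ± 0.08) and Gpr146, an orphan receptor tied to plasma cholesterol (-0.90 ± 0.09). All of the genes in these sentences were called without any one mouse.

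Further large changes were spread over functions. Beside the list counts below, 2.9% of all genes tested were called in either direction. Atp2b2, a plasma membrane calcium pump, rose by 2.20 ± 0.32, Dhrs9, a retinol dehydrogenase, by 2.19 ± 0.27, Tubb2a, a beta-tubulin, by 2.07 ± 0.35, and the zinc finger gene Zfp9 by 1.78 ± 0.27. Nrep fell by 2.25 ± 0.25, the monocarboxylate transporter gene Slc16a5 by 2.01 ± 0.27 and the oxysterol-binding Osbpl3 by 1.66 ± 0.17. Hamp, which encodes the iron hormone hepcidin, was at 218, 173 and 107 CPM in the low-number mice and 526, 625, 515 and 405 CPM in the high-number mice (log2 fold change -1.64 ± 0.24, adjusted p = 0.0134). It was the sole call among 27 acute phase genes. Tbx3, a Wnt target of pericentral hepatocytes, fell by 1.48 ± 0.20 and was the sole call among 17 pericentral genes, while none of 15 periportal genes was called. Por, the electron donor of the cytochromes P450, fell by 0.998 ± 0.18, and none of 22 P450 genes of families 1 to 3 was called. Gclc, which limits glutathione synthesis, and Gstm1, a glutathione transferase, rose by 0.66 ± 0.10 and 0.44 ± 0.09, the 2 higher calls among 24 conjugation and antioxidant genes. Among 19 genes of glycolysis and glycogen, Gys2, the liver glycogen synthase, fell by 0.63 ± 0.13 and Pygl, the liver glycogen phosphorylase, rose by 0.31 ± 0.07. Atp2b2, Dhrs9, Nrep and Osbpl3 were called without any one mouse. Calls were lost for Slc16a5 without mouse 1, for Hamp without mouse 2, for Tbx3 without either, for Tubb2a and Zfp9 without mouse 1, 2 or 13, and for Por also without mouse 12 (adjusted p up to 0.11). Gclc, Gstm1, Gys2 and Pygl lost theirs in 3, 7, 6 and 7 of these fits.

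Many lists of interest in this model had no call in the same fit, in which 2.9% of all genes were called and 49.7% were above 0. None of 34 genes of fibrosis and activated stellate cells was called, although 29 of 34 had a fold change above 0, at a median of 0.14. Without mouse 2, 16 of 34 were above 0 at a median of -0.00803, and without mouse 3 or mouse 9 the median was 0.33 or 0.31. None was called among 32 interferon response genes, 25 genes of MHC and antigen presentation, 24 proliferation genes, 29 macrophage genes, 26 endothelial genes, 19 bile duct genes or 29 genes of oxidative phosphorylation. The major urinary proteins, a family of near-identical genes, had 3 of 16 members above 0 at a median of -0.996, with no call, and that median was -1.6 without mouse 1, -0.59 without mouse 3 and -0.48 without mouse 9. Of 38 ribosomal protein genes, 2 were called higher, among them Rplp1, and 33 were above 0 at a median of 0.18, and of 32 proteasome genes Psmc2 was called higher and 30 were above 0 at a median of 0.17. The summed share of ribosomal protein counts, given above, was also higher in the low-number mice. It sums genes of the same class, so it is no separate support for the ribosomal protein median. Its part in the proteasome median was not tested. Of the 29 primary cilium genes 25 were below 0, with 1 call, the cilium motor gene Dync2h1 (-0.84 ± 0.15), and of 15 polycystin and polycystic liver disease genes Lrp5 alone was called, higher by 0.65 ± 0.12. The calls of Rplp1 and Lrp5 were lost without mouse 1, 2, 12 or 13, that of Dync2h1 also without mouse 3, and that of Psmc2 in all 7 fits without 1 mouse (adjusted p up to 0.11).

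No tested marker of another cell type was called, though the sums moved in places. Tests covered all stellate, endothelial and macrophage markers, but 4 of 5 bile duct and 2 of 5 T and NK cell markers. They covered 3 of 4 B cell, 2 of 3 neutrophil, 2 of 3 erythroid and 1 of 5 adipocyte and pancreas markers. The rest did not pass the filter and could not be called. Bile duct markers summed to 72.9 to 157 CPM in the low-number mice and 55.5 to 132 CPM in the high-number mice, stellate markers to 167 to 228 and 131 to 196 CPM, endothelial markers to 211 to 226 and 217 to 237 CPM, and macrophage markers to 162 to 204 and 172 to 204 CPM. All these ranges overlap. T and NK cell markers stayed at 1.61 to 2.86 CPM in the low-number mice and 0.718 to 2.33 CPM in the high-number mice, B cell markers at 1.59 to 3.37 and 1.72 to 3 CPM, and neutrophil markers at 1.76 to 5.32 and 1.71 to 2.5 CPM, with Ly6g at 0 in all 7. Erythroid markers, 38.7 to 43.8 CPM in the low-number mice and 42.8 to 55.4 CPM in the high-number mice, and those of adipocytes and pancreas, 1.35 to 3.02 and 1.39 to 1.82 CPM with Adipoq and Prss2 at 0, also overlapped. Their part in the differences above was not tested. In bulk tissue, fewer cells of a type cannot be told apart from less of its RNA per cell.

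The same division in Het livers, which share no mouse with the WT sets, gave 1 call in 15722 genes (0.00636%), Serpina3c, and an unadjusted p under 0.05 was reached by 17.9% of genes in WT and 12.7% in Het. Of the 468 genes called in WT, 465 were tested in Het and 341 (73.3%) had the same sign of fold change, against 59.6% of all genes tested in both. The fold changes were smaller in Het: the median was 0.70 in WT and 0.21 in Het for the genes higher in WT, and -0.69 in WT and -0.15 in Het for the lower genes. The genes were chosen by their WT values, which by itself makes those larger. The difference between the WT and Het fold changes, tested gene by gene in 1 fit of the 13 mice, was called for 52 of 16872 genes (0.308%), with 9.52% at an unadjusted p under 0.05, and 42 of the 52 are among the 468. The WT fold change, from the same WT mice, is a part of that difference, so the overlap is partly built in. The count of called differences fell to 6 without WT mouse 1, 3 without WT mouse 13, 5 without Het mouse 6, and 3 and 5 without Het mice 19 and 20, and was 23 to 67 without any other mouse.

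Groups of genes behaved unlike each other in that comparison. The chaperone lists kept their direction in Het, with 18 of 22 unfolded protein response genes above 0 at a median of 0.31 and 16 of 19 heat shock genes at a median of 0.37. Over all genes tested in both, 49.7% were above 0 in Het, at a median of -0.00153. Other lists were as one-sided in Het: 32 of 32 proteasome genes, 37 of 38 ribosomal protein genes and 23 of 24 ER translocation genes were above 0. Hspa5, Manf and Hsph1 had Het fold changes of 0.86, 1.16 and 1.09, and the tests of their differences from WT gave adjusted p-values of 0.918, 0.974 and 0.882. Dnajb9 was at 0.38 in Het and its difference of 0.94 from WT was called (adjusted p = 0.0485), as was that of Herpud1. The clock list, called in both directions in WT with 6 of 20 members above 0, had 10 of 19 tested members above 0 in Het. Its Het median was 0.000595. These counts do not show whether each member kept its own sign. Arntl was at -1.46 in Het, and its difference of 3.40 ± 0.52 from WT was called (adjusted p = 0.0193). Dbp at 0.55, Per3 at 0.26, Cry2 at 0.25 and Wee1 at 0.13 in Het also had called differences, whereas Nr1d1 was higher in both genotypes (1.16 in WT and 1.09 in Het, adjusted p of the difference 0.976). Of the fasting and glucocorticoid list 15 of 21 members were above 0 in WT, against 4 of 21 in Het, and the differences of Tat and G6pc were called. Cyp7a1 was lower in both, by 2.43 in WT and by 1.96 in Het (adjusted p of the difference 0.799). None of these Het fold changes was itself called.

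**Figure D4:**
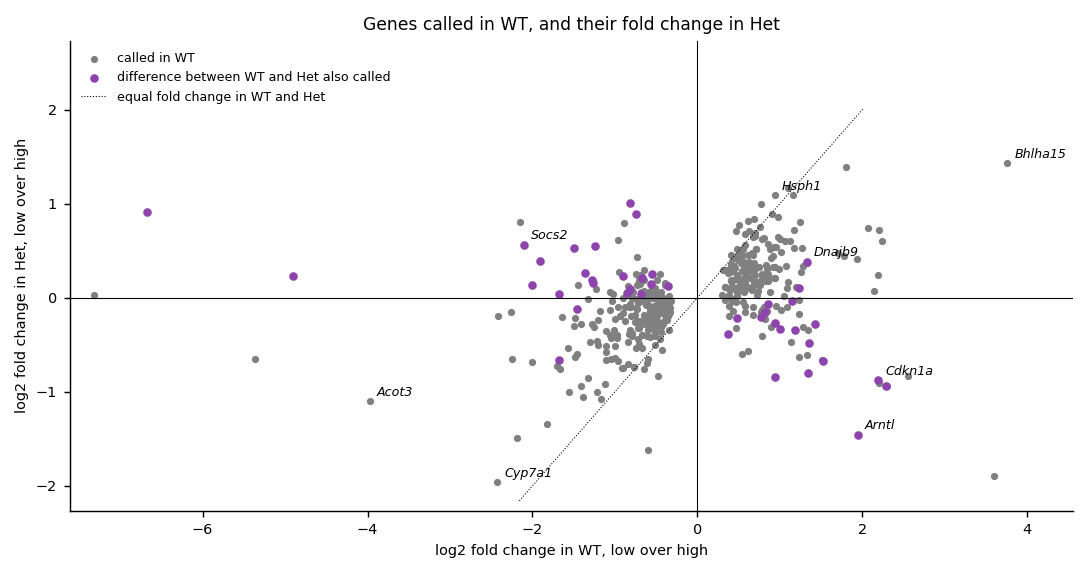
The 465 genes called in WT and tested in Het, as points: log2 fold change of low-number over high-number mice in WT (horizontal axis) and in Het (vertical axis), with the genes whose WT and Het fold changes were called different in purple and the line of equal fold change dotted. Arntl and Cdkn1a are positive in WT and negative in Het, while Hsph1 and Cyp7a1 lie near the dotted line.

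By mouse, the mean log2 level of the unfolded protein response list relative to the WT mean was 0.56, 0.27 and 0.28 in WT mice 1, 2 and 3, against -0.17, -0.22, -0.29 and -0.43 in WT mice 9, 11, 12 and 13. In Het it was 0.19, 0.015 and -0.18 in mice 4, 6 and 7, against -0.37, -0.30 and -0.26 in mice 14, 19 and 20. The heat shock list was at 0.43, 0.34 and 0.18 in the WT low-number mice and between -0.26 and -0.22 in the WT high-number mice, and in Het at 0.22, 0.34 and 0.06 in the low-number mice against -0.32, -0.22 and 0.02 in the high-number mice. Neither list overlapped between the low and high sets in WT or in Het, and the distance between the sets was shorter in Het. That was not particular to the chaperone lists. The lists of ER translocation, ribosomal proteins and the proteasome did not overlap in WT or in Het either. In Homo livers the sets overlapped for both chaperone lists: the unfolded protein response list was at -0.18 and -0.24 in mice 8 and 10, against -0.17, -0.20, -0.11 and -0.48 in mice 15 to 18, and the heat shock list at -0.31 and -0.075, against 0.11, -0.04, -0.006 and -0.13. The ribosomal protein list did not overlap there, at 0.004 and -0.02 against -0.23 to -0.058. Nor did the proteasome list, at -0.063 and -0.074 against -0.285 to -0.145.

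The other 12 mice were then placed on the genes called in WT. For each gene it was asked whether a mouse was nearer to the mean of the low-number WT mice or to that of the high-number WT mice. Among the Het mice, 41.7, 26.3 and 27.4% of the 468 genes were nearer the low-number mean in mice 4, 6 and 7, and 8.55, 13.9 and 14.5% in mice 14, 19 and 20. Homo mice 8 and 10 had 15.2 and 17.5%, and Homo mice 15 to 18 had 11.5 to 24.4%. Every one of the 12 was thus nearer the high-number WT mice on most of these genes. Mice 1, 2 and 3, at 99.1 to 100%, stand apart on them by the choice of the genes. The 12 also differ from the WT mice in genotype. Mice 1, 2 and 3 are WT and mice 4, 6, 7 and 8 are Het or Homo, so among these mice genotype cannot be told apart from number.

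**Figure D5:**
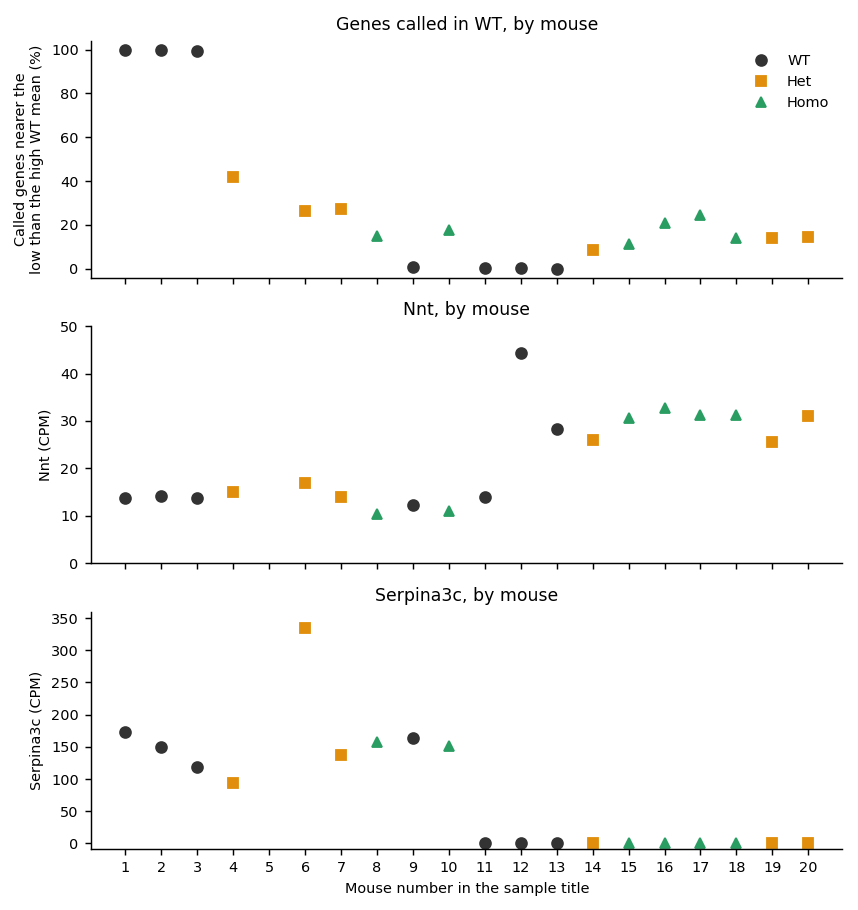
Values by mouse number (horizontal axis) for all 19 mice, with WT as circles, Het as squares and Homo as triangles. Top: percent of the 468 genes called in WT that are nearer the low-number than the high-number WT mean, at 41.7% or less in all mice except mice 1 to 3. Middle: Nnt in CPM, at most 16.8 in mice 1 to 11 and at least 25.6 in mice 12 to 20. Bottom: Serpina3c in CPM, at least 93.8 in mice 1 to 10 and at most 0.253 in mice 11 to 20.

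Single genes divided the mice at other numbers, within the sets compared here. Serpina3c, a serine protease inhibitor gene in a cluster of close copies whose reads could be shared, was at 173, 150 and 119 CPM in the low-number WT mice. Among the high-number WT mice it was at 164 CPM in mouse 9, but at 0.111, 0.122 and 0.0598 CPM in mice 11, 12 and 13, so the sets overlapped (log2 fold change 1.85 ± 1.72, adjusted p = 0.644). In every genotype mice 1 to 10 were at 93.8 CPM or more and mice 11 to 20 at 0.253 CPM or less. Nnt, the mitochondrial transhydrogenase that makes NADPH, was at 13.8, 14.1 and 13.7 CPM in the low-number WT mice, against 12.2, 14, 44.3 and 28.3 CPM in the high-number WT mice. Its step lay between mice 11 and 12, and it was not called either (-0.83 ± 0.41, adjusted p = 0.336).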

How the data were processed

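RNA was extracted from liver with Trizol and an RNeasy kit and made into libraries with a NuGen Ovation mouse kit, per the labels' protocols. The authors deposited raw counts for each gene symbol in every mouse. The submitters' processing notes name STAR 2.7.2b, featureCounts 1.6.4 and the build GRCm38. No source used here gives the annotation or how strand was set, so reads of overlapping genes on opposite strands cannot be told apart. Of 35976 rows, 27 carry a date in place of a symbol and are not named.

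The deposited counts were analysed in R 4.3.3 with edgeR 4.0.16 (TMM normalization, filterByExpr by set, quasi-likelihood F test). Benjamini-Hochberg adjusted p-values under 0.05, two-sided and over all tested genes, were called. The WT fit held 7 libraries, the Het fit 6 and the fit of their difference 13. A standard error is the size of the fold change over the root of F. CPM use TMM library sizes over all 19 libraries, and log2 levels a prior count of 2. Replicates are libraries of separate mice, so p-values measure the spread between mice of a set. Libraries of a set differed by far more than sampling noise (chi-square at least 21.6 per degree of freedom).

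The division of the mice, the members and the gene lists were chosen with earlier results of these data known. Named genes are, among called genes that have an official symbol and average 1 CPM or more in the higher set, the 12 largest changes and the 8 smallest p-values in each direction, then the 4 smallest p-values of each of the 54 lists, and Pkd1, Pkd2, Krt7, Krt19, Dnajb9 and Hspa5. The text leaves out many of the list members, and some called genes are not reported here. Outside this rule, chosen after their values were seen, are further called genes of the clock, unfolded protein response and heat shock lists, and Per1, Klf15, G6pc, Igf1, Prox1, Nnt, Serpina3c, Acnat2, Hnrnpa3, Trim12a, Fbxo44 and LOC101056219. Alternatives were DESeq2 1.42.0, limma-voom (limma 3.58.1), DESeq2 size factors, library totals alone, other filters and thresholds, all 19 libraries in 1 fit, mouse number as a number, and leaving out each mouse. The scripts were tested on simulated counts. Promoter sequences are those of RefSeq, GRCm38.p6, matched by symbol: 11906 of the 16153 tested genes had at least 1.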

Additional observations from a re-analysis of the deposited data

Results flagged for a closer look

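In the group of 4 high-number WT mice, 5 of the 103 genes examined had a mouse that stood apart from the other 3 by Dixon's test, about the share that chance gives (1 in 20). Mouse 12 was high for Hspa1b at 4.07 CPM and mouse 13 for Krt19 at 2.99 CPM. Mouse 9 was low for Fzd4 at 14.9 CPM and for Slc16a5 at 6.45 CPM, and mouse 11 was low for Tbx3 at 39.7 CPM.

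For 23 of those genes the test of the difference between the WT and the Het fold change, low-number over high-number mice, was called by edgeR. On the log2 scale the WT minus Het difference was 3.4 for Arntl, -1.79 for Dbp, -1.62 for Per3, -0.8 for Cry2 and -2.14 for Wee1 among clock-related genes. It was 0.94 for Dnajb9, 1.21 for Herpud1 and 1.14 for Alg2, and 2.14 for Tat, 0.99 for Klf15, 1.91 for G6pc and -2.66 for Socs2. The p53 targets Cdkn1a and Trp53inp1 differed by 3.07 and 1.78. Among the genes of smallest p in WT, it was 1.83 for Cpeb2, 1.18 for Adck3, 1.53 for Ip6k2, -1.01 for Nmrk1, -2.3 for Tgm1, -1.33 for Fzd4, -1.43 for Slc5a6, -0.9 for Ankrd12 and -1.12 for Gpr146. Over all genes tested, the difference was called for 52 of 16872 (0.308%). The WT and Het sets share no mouse, but the genes other than G6pc had been called in WT. The difference uses those same WT mice, so this choice of genes by itself makes it larger.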

How the results depend on the processing

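No paired analysis was possible because the mouse numbers of the sets compared are all different. Of the 468 WT calls, 462 were among the 1331 of DESeq2, 447 among the 479 of limma-voom, 465 among the 473 with DESeq2 size factors and 406 among the 716 of a fit of all 19 libraries. An adjusted p under 0.10 gave 899 calls and a log2 fold change of at least 1 left 120. Without 1 mouse the WT count ran from 88, without mouse 1, to 391, without mouse 11, with 134 without mouse 2, 106 without mouse 13, 281 without mouse 3 and 278 without mouse 12. The cause was not tested, and these fits have fewer mice. The Het count of 1 was 424 by DESeq2, 0 by limma-voom, 6 with no filter, 40 with all 19 libraries, 3 at an adjusted p under 0.10 and 0 to 2 without 1 mouse. The count of 52 differences between WT and Het was 297 by DESeq2, 100 at an adjusted p under 0.10 and 3 to 67 without 1 mouse. Of the 95 called genes examined one by one, no fold change turned under any alternative. Calls were lost in 260 of 665 fits without 1 mouse and in 16 of 664 other fits, among them Arntl, Npas2 and Acot3 by limma-voom. Per1, not called, ran from -0.32 to 0.14 without 1 mouse, with 0.14 without mouse 2 and 0.02 without mouse 11. Other scalings moved the median fold change of all genes by less than 0.01. Of the 3230 tested genes of lowest mean level, at most 1.16 CPM, 5 were called higher and 4 lower.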

Other observations

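Besides Serpina3c, 3 genes were near 0 in some of the 19 mice and expressed in all the others (at most 0.4 CPM in at least 2 mice and at least 2 CPM in the remaining mice, limits chosen after the values were seen). Trim12a, of the antiviral TRIM family, was at 8.43, 11.7 and 10.3 CPM in the low-number WT mice, against 12.3 and 4.78 CPM in mice 11 and 12 and 0 in mice 9 and 13. Over all 19 mice it was at 3.37 CPM or more in 12 mice and at 0.149 CPM or less in 7, and low and high numbers and all 3 genotypes were on both sides. LOC101056219 was at 0.184 CPM or less in mice 12, 14 and 18 and at 5.25 CPM or more in the other mice, and Fbxo44, a ubiquitin ligase subunit gene, at 0.174 CPM or less in mice 14 and 16 and at 5.72 CPM or more in the other mice. None of the 4 genes was called in WT (adjusted p from 0.377 to 0.924).

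Calls were spread over the genome and rose with level. By chromosome, the share of tested genes called ran from 1.3% on X to 4.04% on chromosome 5, setting aside Y and the mitochondrial genome, which had no call among 6 and 9 tested genes. With the tested genes in 5 equal bins it was 0.279% in the bin of lowest mean CPM and 6.81% in the highest, and 1.96% in the bin of shortest genomic span and 3.97% in the longest. Median log2 fold changes ran from 0.023 in the shortest to -0.02 in the longest genes.

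Krt19, a bile duct keratin, was at 0.68, 1.36 and 0.293 CPM in the low-number mice and 0.834, 1.17, 1.01 and 2.99 CPM in the high-number mice (log2 fold change -0.94 ± 0.60, adjusted p = 0.473). Pkd2, the channel partner of polycystin-1, was at 19.8 ± 1.97 CPM in the low-number mice (SD, n = 3) and 17 ± 6.6 CPM in the high-number mice (SD, n = 4), with an adjusted p of 0.742. Neither was called.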
